A study of Mus musculus with 6 samples.

Results

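The clustered protocadherins are the cadherin-like cell surface proteins encoded by the Pcdha, Pcdhb and Pcdhg gene clusters, and their transcripts were measured here in mouse epiblast stem cells grown without or with Activin A. Members were taken by symbol from the GENCODE M21 annotation on GRCm38: every gene whose symbol starts with Pcdha, Pcdhb or Pcdhg followed by a number, or by a, b, c or ac and a number. This gave 58 of the 52609 annotated genes, with 14 in the alpha cluster, 22 in the beta cluster and 22 in the gamma cluster. By subclass, the alpha cluster held 2 C-type genes, and the gamma cluster held 12 gamma A, 7 gamma B and 3 C-type genes.

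There were 6 RNA-seq libraries, 3 labelled as grown without Activin A and 3 labelled as grown with it. All cells had FGF2 at 10 ng/mL in the medium. They also had IWP2 at 5 µM, a blocker of Wnt protein secretion, and SB431542 at 2 µM, an inhibitor of the type I receptors of Activin, Nodal and TGF-beta. The cells with Activin A had it at 20 ng/mL in addition. The cells came from dissected epiblast and were kept on inactivated mouse embryonic fibroblasts in a serum replacement medium, so RNA of feeder cells can be in every library. Polyadenylated RNA was made into stranded libraries.

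The series' title asks how Activin A bears on the entry of epiblast stem cells into the ectoderm lineage. Its design note speaks of 2 lines with 3 replicates each, without saying which library came from which line, so a difference between lines cannot be told apart from Activin A. The labels do not say that replicates were separate cultures, so each p-value reflects the spread between libraries alone, which may be technical. For replicate 1 of the cells without Activin A, the title and genotype label say that Activin A was absent while the growth factor label lists it, and the treatment protocol lists it for all 6 libraries. Groups follow the titles and genotype labels, and the results were also computed without that library.

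As background, each clustered protocadherin isoform is transcribed from its own promoter at a variable first exon, which encodes the extracellular cadherin repeats, the membrane span and the start of the cytoplasmic tail. In the alpha and gamma clusters these variable exons are spliced to constant exons that encode a shared end of the tail, while the beta genes have no constant exons. In mouse neurons the alternate isoforms are switched on stochastically through CTCF, cohesin and promoter DNA methylation, the C-type isoforms are expressed more uniformly, and the resulting sets of isoforms bind only matching sets on other membranes. This gives neurites a means of telling self from non-self, which is the role these genes are best known for.

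On chromosome 18 of GRCm38, plus strand, the alpha genes span bases 36930184 to 37187661, the beta genes 37264938 to 37524479 and the gamma genes 37661793 to 37841873. The 3 constant blocks of the alpha cluster hold 59, 89 and 2712 bases, and those of the gamma cluster hold 59, 89 and 1971 bases. Of the words of 31 bases in a member's transcripts, the median member shared 63.6% with another gene in the alpha cluster (range 45.5 to 90.7%), 11.8% in the beta cluster (0 to 22.5%) and 46.2% in the gamma cluster (33.0 to 67.5%). The deposited values come from a method that divides reads among transcripts, so the split between alpha or gamma members is an estimate, while the sum of reads over a cluster does not depend on how its members divide them. Strand use in the counting is not given in the sources used here, and the 9 antisense genes that overlap a member's exon held at most 11.8 reads in a library.

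All 6 libraries had between 9946521 and 16350923 deposited reads. The gamma cluster held most of the protocadherin signal in these cells. Its summed level was 50.7, 52.3 and 49.8 TPM (a read level scaled by transcript length and library total) without Activin A, and 44.1, 43.3 and 43.2 TPM with it. The beta genes together reached 5.33, 6.20 and 5.06 TPM without Activin A and 4.73, 4.75 and 5.34 TPM with it. The alpha genes together were at 1.93, 1.93 and 2.09 TPM without Activin A and 2.92, 2.20 and 2.38 TPM with it. The gamma groups did not overlap and were higher without Activin A, the alpha groups did not overlap and were lower, and the beta groups overlapped.

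Most single isoforms were scarce. No member was at 0 in all 6 libraries, but 24 of the 58 stayed under 10 reads in every library, 21 had at least 10 reads in all 6, and 26 had a mean level under 0.1 TPM. Only 6 members averaged at least 1 TPM over all libraries, and each of these was a gamma gene. In order of mean TPM these were Pcdhgc3 (20.6), Pcdhgc4 (14.7), Pcdhgb5 (5.87), Pcdhgc5 (1.77), Pcdhgb6 (1.36) and Pcdhgb7 (1.08). The next were Pcdhb22 (0.903), Pcdha4 (0.859), Pcdhb2 (0.857) and Pcdhgb8 (0.752), whose values per library overlap one another. For scale, the median tested gene of the whole transcriptome stood at 7.94 TPM, and Pcdhgc3 lay at the 70.8th percentile of tested genes, Pcdhgc4 at the 63.6th and Pcdhgb5 at the 43.7th. The level of Pcdhgc4 rests on 1 short transcript, Pcdhgc4-203, which is almost all constant exon. Without it Pcdhgc4 had 1.18, 1.30 and 1.16 TPM without Activin A and 0.71, 0.775 and 0.626 TPM with it, a mean of 0.958 TPM. It then ranked number 6 among the members, at percentile 17.2 of tested genes, and 5 members averaged at least 1 TPM. The gamma sum without that transcript was 39.0, 41.4 and 38.4 TPM without Activin A and 28.0, 25.6 and 28.8 TPM with it. Pcdhgc4-203 itself had 11.7, 10.9 and 11.4 TPM without Activin A and 16.1, 17.7 and 14.4 TPM with it. Leaving it out, a choice made after seeing the data, could therefore only widen the gap between the groups.

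**Figure D1:**
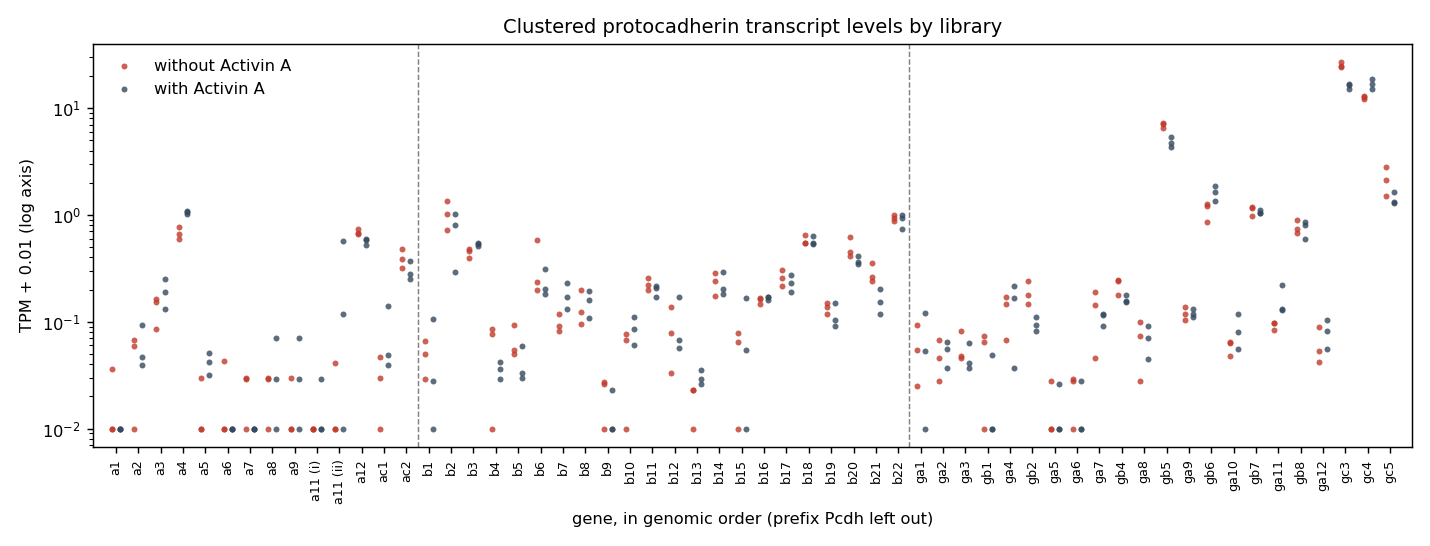
TPM + 0.01 on a log axis for each of the 58 clustered protocadherin genes in genomic order, 1 point per library, without Activin A to the left of with Activin A for each gene; dashed lines part the alpha, beta and gamma clusters, and i and ii are the 2 gene IDs that carry the symbol Pcdha11. The highest levels lie at the 3′ end of the gamma cluster, with Pcdhgc3 at a mean of 20.6 TPM and Pcdhgc4 at 14.7 TPM, or 0.958 TPM with the mostly constant transcript Pcdhgc4-203 left out.

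The comparison without against with Activin A was made with edgeR's quasi-likelihood test over the 15448 genes that passed a low-count filter, and a gene was called at a Benjamini-Hochberg adjusted p under 0.05. Log2 fold changes (log2FC) are without minus with Activin A. Across the transcriptome 29.2% of tested genes were called, 14.0% higher and 15.2% lower without Activin A. Of the 58 clustered protocadherins, 28 passed the filter, and of these 4 were called higher, 3 were called lower and 21 were not called. The called share of the members, 7 of 28 or 25%, is near that of all tested genes, and their median log2FC of 0.09 stood beside 0.0012 over all tested genes. The groups did not overlap in CPM (the read count scaled to library size) for 12 of the 28 tested members, against 42.9% of all tested genes. In bulk samples, fewer cells of a type and less RNA per cell cannot be told apart, which holds for every value here.

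Summed over its 22 genes, the gamma cluster rose without Activin A. The summed level was 309.6, 315 and 312 CPM without Activin A and 254, 251 and 236 CPM with it, so the groups did not overlap. Its mean was 312 ± 2.49 CPM without Activin A and 247 ± 10.1 CPM with it (SD, n = 3 each), which is 1.26-fold higher (log2FC 0.34 ± 0.05 SE, edgeR adjusted p = 9.25e-05). Without the library whose growth factor label disagrees, the log2FC was 0.34 (edgeR adjusted p = 0.00151), and 2 members were called higher and 3 lower. The call was lost on a length-scaled level: with limma on log2(TPM + 1) the log2FC was 0.22 with an adjusted p of 0.0789, and with an offset for average transcript length in edgeR it was 0.18 with an adjusted p of 0.0829. The rise of the sum was not shared by all gamma members. Pcdhgc3 alone averaged 177 CPM without and 114 CPM with Activin A. The 12 tested gamma genes had a median log2FC of 0.035, with 3 called higher and 2 lower (41.7%, against 29.2% of all tested genes).

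The alpha and beta totals did not pass the test. The alpha genes summed to 15.5, 14.8 and 16.6 CPM without Activin A and 19.1, 16.8 and 17.3 CPM with it, groups that did not overlap, with a log2FC of -0.19 and a 95% interval from -0.37 to 0.00 (edgeR adjusted p = 0.13). The beta genes summed to 30.2, 31.9 and 31.4 CPM without Activin A and 29.1, 28.9 and 29.2 CPM with it, again without overlap, with a log2FC of 0.10 and a 95% interval from -0.04 to 0.24 (edgeR adjusted p = 0.273). Of all clustered protocadherin reads, the gamma genes took 87.0 ± 0.24% without Activin A and 84.1 ± 0.54% with it, the beta genes 8.69 ± 0.17% without and 9.9 ± 0.4% with it, and the alpha genes 4.36 ± 0.26% without and 6.03 ± 0.33% with it (SD, n = 3 each).

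**Figure D2:**
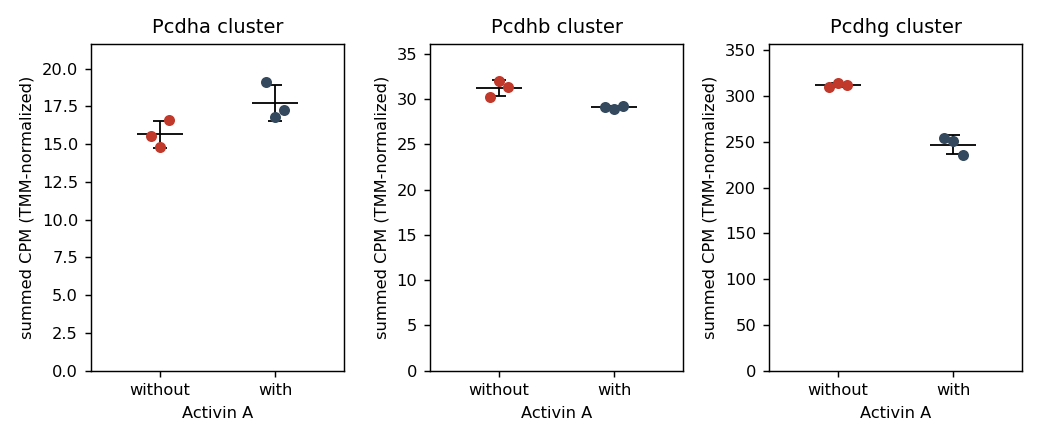
Summed CPM of the alpha, beta and gamma protocadherin clusters, with 1 point per library, the mean as a long bar and the SD as the error bar (n = 3 per group), without Activin A left of with Activin A. The gamma total is at 309.6 to 315 CPM in every library without Activin A and at 236 to 254 CPM in every library with it; the alpha and beta totals did not pass the test.

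Pcdhgc3, the C-type gamma isoform with the highest level, rose without Activin A. In mouse cortical neurons it promotes dendrite branching and binds Axin1. Its level was 24.6, 26.8 and 24.2 TPM without Activin A and 16.6, 15.2 and 16.3 TPM with it, so every library without Activin A lay above every library with it. In reads this was 2482, 2719 and 2309 without Activin A and 1968, 1556 and 1084 with it. The change was 1.55-fold (log2FC 0.63 ± 0.05 SE, edgeR adjusted p = 4.94e-07), and the call held under each of the 17 alternatives run for it, with a log2FC between 0.59 and 0.67. Of its 31-base words, 38.2% were shared with another gene. Pcdhgc3 took 56.8 ± 1.44% of the gamma reads without Activin A and 46.2 ± 1.0% with it (SD, n = 3 each).

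Pcdhgc4, the C-type isoform that mouse neurons need for survival, went the other way in its summed counts. Its level was 12.9, 12.2 and 12.6 TPM without Activin A and 16.8, 18.5 and 14.98 TPM with it, with no overlap. The gene was called lower without Activin A, by 1.28-fold (log2FC -0.36 ± 0.09 SE, edgeR adjusted p = 0.0107), and its share of gamma reads was 14.5 ± 0.73% without Activin A and 23.2 ± 2.95% with it (SD, n = 3 each). The call was lost when replicate 2 of the cells without Activin A was left out (log2FC -0.32, edgeR adjusted p = 0.0599) and under limma on log2(TPM + 1) (adjusted p = 0.0503) and log2(TPM + 0.1) (adjusted p = 0.0501).

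This direction turns with a single short transcript. Pcdhgc4-203 has 2272 bases, of which 2119, or 93.3%, are the gamma constant exons, and its other 153 bases all lie within Pcdhgc4-201. It was given 541, 503 and 498 reads without Activin A and 869, 830 and 438 reads with it, the bulk of the gene's reads. The full-length Pcdhgc4-201 had 89.7, 119.7 and 119.6 reads without Activin A and 52.2, 53.7 and 45.0 reads with it, so all libraries without Activin A lay above those with it. With Pcdhgc4-203 left out, a choice made after seeing the data, the gene was called higher without Activin A (log2FC 0.84 ± 0.13 SE, edgeR adjusted p = 0.000169), and the gamma total had a log2FC of 0.50 (edgeR adjusted p = 1.46e-06). How many reads of the constant exons belong to this transcript was not tested.

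In a fit at the level of transcripts, 2.71% of 39997 tested transcripts were called. Of the 89 member transcripts, 35 were tested, 2 were called higher and 0 were called lower without Activin A in edgeR, while at an unadjusted p under 0.05 these counts were 4 and 3. The called transcripts were Pcdhgc3-201 (log2FC 0.61, edgeR adjusted p = 0.00769) and Pcdhgb5-201 (log2FC 0.47, edgeR adjusted p = 0.0301). Pcdhgc4-201 had a log2FC of 0.99 ± 0.22 SE (edgeR adjusted p = 0.0935) and Pcdhgc4-203 a log2FC of -0.56 ± 0.13 SE (edgeR adjusted p = 0.11), and neither passed the test.

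**Figure D3:**
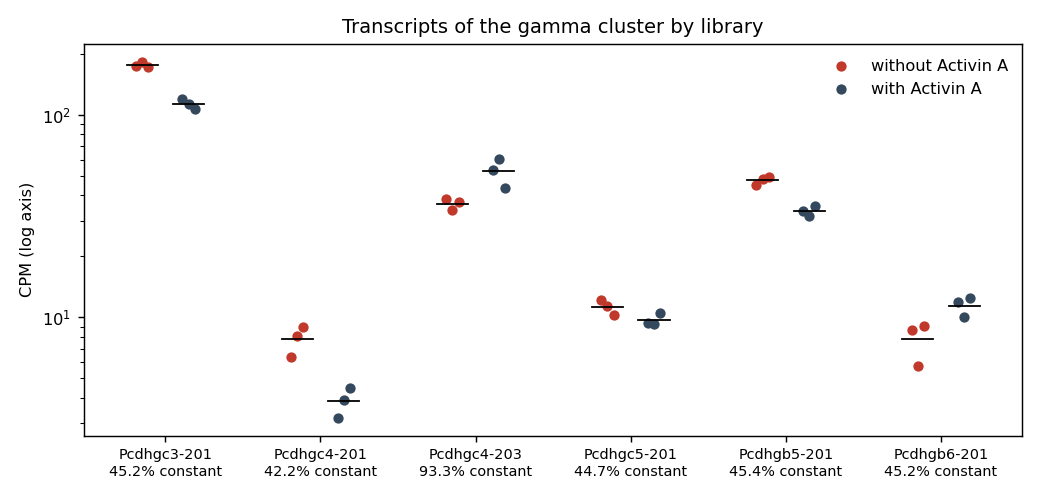
CPM on a log axis for 6 transcripts of the gamma cluster, 1 point per library and a bar at the mean of 3, without Activin A left of with Activin A; the label under each gives the share of its bases that are constant exons. Pcdhgc4-203, which is 93.3% constant exon, lies at 33.9 to 38.3 CPM without Activin A and 43.7 to 60.8 CPM with it, while Pcdhgc4-201 of the same gene lies at 6.36 to 8.94 CPM without and 3.19 to 4.49 CPM with it.

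Pcdhgc5, the remaining C-type gamma gene, had 2.79, 2.11 and 1.503 TPM without Activin A and 1.31, 1.28 and 1.64 TPM with it, and the groups overlapped. Its log2FC of 0.30 ± 0.11 SE did not pass the test (95% interval 0.06 to 0.53, edgeR adjusted p = 0.0559). The gene was called higher when replicate 3 of the cells with Activin A was left out (log2FC 0.35, edgeR adjusted p = 0.0163) or replicate 3 of the cells without it (log2FC 0.38, edgeR adjusted p = 0.0401). The same call came with no low-count filter (edgeR adjusted p = 0.0484) and among protein-coding genes only (edgeR adjusted p = 0.0452). The 3 C-type gamma genes together were at 40.3, 41.1 and 38.2 TPM without Activin A and 34.7, 34.99 and 32.9 TPM with it. With Pcdhgc4-203 left out they were at 28.6, 30.2 and 26.8 TPM without Activin A and 18.7, 17.3 and 18.6 TPM with it.

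Among the gamma B genes, alternate isoforms, Pcdhgb5 stood well above the rest. It had 6.47, 7.22 and 7.09 TPM without Activin A and 4.75, 4.31 and 5.36 TPM with it, and the groups did not overlap. It rose by 1.43-fold without Activin A (log2FC 0.52 ± 0.07 SE, edgeR adjusted p = 2.78e-05), and this call too held under its 17 alternatives. Of its 31-base words, 40.0% were shared with another gene.

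Pcdhgb6, the next gamma B gene downstream of Pcdhgb5, fell without Activin A. It had 1.21, 0.842 and 1.27 TPM without Activin A and 1.64, 1.34 and 1.86 TPM with it, with no overlap. The change was 1.47-fold (log2FC -0.55 ± 0.15 SE, edgeR adjusted p = 0.0129). The call was lost when replicate 2 of the cells without Activin A was left out (log2FC -0.36, edgeR adjusted p = 0.0663) and when replicate 1 of the cells with it was left out (log2FC -0.51, edgeR adjusted p = 0.0664). It was also lost with the length offset (edgeR adjusted p = 0.0954) and under limma on log2(TPM + 1) (adjusted p = 0.164) and log2(TPM + 0.1) (adjusted p = 0.179). Of the gene's words, 57.9% were shared.

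Pcdhgb2 was called higher without Activin A at a low count. It had 16.8, 13.8 and 22.1 reads without Activin A and 11.9, 7.37 and 5.53 reads with it, a log2FC of 1.002 ± 0.34 SE (edgeR adjusted p = 0.0380). The groups did not overlap, but the call was lost when any library other than the one without Activin A replicate 2 was left out, with adjusted p-values up to 0.181 in edgeR and a log2FC down to 0.78. Pcdhgb7 and Pcdhgb8 did not pass the test, and their groups overlapped. Pcdhgb7 had 0.962, 1.18 and 1.16 TPM without Activin A and 1.03, 1.02 and 1.11 TPM with it (log2FC 0.04, 95% interval -0.21 to 0.29). Pcdhgb8, annotated as a polymorphic pseudogene, had 0.662, 0.735 and 0.887 TPM without Activin A and 0.795, 0.589 and 0.843 TPM with it (log2FC 0.03, 95% interval -0.31 to 0.38).

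The 12 gamma A genes were close to silent. Summed over all 12, they reached 0.716, 0.787 and 0.699 TPM without Activin A and 0.846, 0.803 and 0.853 TPM with it. The 7 gamma B genes reached 9.70, 10.4 and 10.9 TPM without Activin A and 8.49, 7.51 and 9.40 TPM with it. Both sums kept the groups apart, the gamma A sum lower and the gamma B sum higher without Activin A, and these sums were not tested. Of the 12, 3 passed the filter and 0 were called by edgeR or DESeq2. At an unadjusted p under 0.05 in edgeR 1 was lower, Pcdhga11, named after its values were seen (log2FC -0.83 ± 0.34 SE, edgeR adjusted p = 0.0792).

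**Figure D4:**
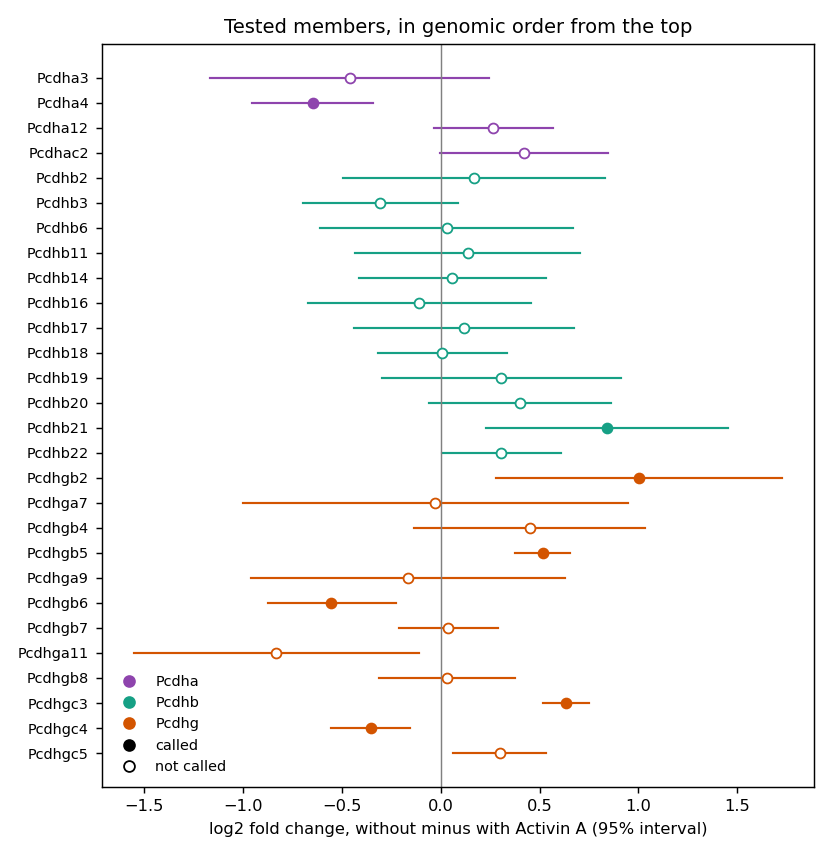
Log2 fold change (without minus with Activin A) with its 95% interval for the 28 clustered protocadherins that passed the low-count filter, in genomic order from the top; filled points passed an edgeR adjusted p of 0.05 and open points did not. Pcdhgc3 at 0.63 and Pcdhgb5 at 0.52 have the narrowest intervals, and most beta genes have intervals that include 0.

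In the alpha cluster 4 of 14 genes passed the filter, and Pcdha4 was called. This alternate isoform had 0.654, 0.582 and 0.764 TPM without Activin A and 1.07, 1.02 and 1.06 TPM with it, so the groups did not overlap. It fell by 1.57-fold without Activin A (log2FC -0.65 ± 0.14 SE, edgeR adjusted p = 0.00336), and its call held with each library left out in turn but was lost under limma on log2(TPM + 0.1) (log2FC -0.59, adjusted p = 0.0714). Of its words, 90.7% were shared with another gene, the highest share in the alpha cluster.

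The other alpha isoform with a comparable level, Pcdha12, had 0.65, 0.734 and 0.671 TPM without Activin A and 0.579, 0.566 and 0.508 TPM with it. These groups did not overlap either, and its log2FC of 0.27 did not pass the test (95% interval -0.04 to 0.57, edgeR adjusted p = 0.181). Pcdha4 took 30.1 ± 3.41% of the alpha reads without Activin A and 41.5 ± 2.15% with it, and Pcdha12 took 35.5 ± 2.99% without and 25.6 ± 3.24% with it (SD, n = 3 each).

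The alpha C-type genes were low. Pcdhac2, which in mouse serotonergic neurons is needed for axon tiling, had 0.308, 0.472 and 0.376 TPM without Activin A and 0.271, 0.241 and 0.359 TPM with it. The groups overlapped, and its log2FC of 0.42 ± 0.20 SE did not pass the test (edgeR adjusted p = 0.131). Pcdhac1 had 4.35, 0 and 2.19 reads without Activin A and 17.9, 4.65 and 2.24 reads with it, and it did not pass the low-count filter. With no filter it was called lower (log2FC -2.00 ± 0.64 SE, edgeR adjusted p = 0.0159), on a difference carried mainly by the library with Activin A replicate 1.

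The beta genes, which encode whole proteins without a constant tail, shared the least sequence of the 3 clusters. Of the 22, 12 passed the filter, 1 was called higher and 0 lower in edgeR, which is 8.33% of those tested against 29.2% of all tested genes. The tested beta genes were low, with means without Activin A from 1.18 CPM (Pcdhb16) to 5.56 CPM (Pcdhb22). The SE of their log2FC ran from 0.14 (Pcdhb22) to 0.31 (Pcdhb2), against 0.05 for Pcdhgc3. How far low counts bear on the called share was not tested. At an unadjusted p under 0.05, edgeR had 2 higher and 0 lower, and DESeq2 called 0 in either direction. Their log2FC ran from -0.31 to 0.84, with a median of 0.13. Pcdhb21 was the called gene, with 35, 25.8 and 22.2 reads without Activin A and 23, 11 and 9.68 reads with it (log2FC 0.84 ± 0.29 SE, edgeR adjusted p = 0.0395). Its groups did not overlap in CPM, at 2.48, 1.74 and 1.66 CPM without Activin A and 1.41, 0.805 and 0.966 CPM with it. The call was lost when any library other than the one with Activin A replicate 1 was left out, with edgeR adjusted p-values up to 0.186 and a log2FC down to 0.64. It was also lost under DESeq2, under limma at both pseudocounts and with the length offset. Of 17 alternatives 9 lost the call, and the lowest log2FC was 0.15.

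Pcdhb22 had the highest mean level of the beta genes. It had 0.979, 0.933 and 0.873 TPM without Activin A and 0.983, 0.729 and 0.921 TPM with it, which overlap. In CPM its groups did not overlap, at 5.53, 5.55 and 5.59 without Activin A and 4.89, 3.95 and 4.62 with it. Its log2FC of 0.31 did not pass the test (95% interval 0.01 to 0.61, edgeR adjusted p = 0.118). Its transcripts Pcdhb22-202 (log2FC 0.62) and Pcdhb22-201 (log2FC -0.23) went opposite ways, and neither passed the test. Pcdhb2 had 1.005, 1.34 and 0.708 TPM without Activin A and 0.285, 0.796 and 1.01 TPM with it, which overlap widely (log2FC 0.17, edgeR adjusted p = 0.74). The Pcdhb2 level rests in part on the 511-base transcript Pcdhb2-202, which had 3.95, 4.47 and 2.52 reads without Activin A and 0.07, 2.64 and 1.84 reads with it.

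The 30 members that did not pass the filter were low in both groups. Among them, 10 alpha genes, 10 beta genes and 10 gamma genes had at most 19 reads in any library. Pcdhb7 had the most, with 8, 6 and 5 reads without Activin A and 19, 12 and 6 reads with it. They were not tested in the comparison, and their low counts do not show that they were absent. Under alternatives 2 of them were called lower without Activin A: Pcdhac1 with no filter, as above, and Pcdhb7 with replicate 3 of the cells with Activin A left out (log2FC -1.18, edgeR adjusted p = 0.0354).

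A transcript gene that is no member, Gm38182, lies on the same strand over the gamma constant exons, at chromosome 18 bases 37823879 to 37840382. It had 96.7, 72.6 and 69.8 reads without Activin A and 53.7, 42.9 and 16.4 reads with it, and it rose without Activin A by 2.03-fold (log2FC 1.02 ± 0.22 SE, edgeR adjusted p = 0.00247). Reads from it and from the gamma genes share sequence, and its part in the gamma total was not tested. Of the 34 protein-coding genes within 500 kb of the locus, 29 were tested, with a median log2FC of 0.05. Without Activin A 4 of them were called higher and 2 lower (20.7%, against 29.2% of all tested genes). Among these, Arap3, which encodes a GTPase-activating protein, averaged 65.2 CPM without Activin A and 42.5 CPM with it (edgeR adjusted p = 5.14e-06). Hbegf, which encodes an EGF receptor ligand, averaged 8.08 CPM without and 3.65 CPM with Activin A (edgeR adjusted p = 0.000173). Diaph1, which encodes an actin-nucleating formin, averaged 95.9 CPM without and 124 CPM with it (edgeR adjusted p = 0.0001), and Cd14, which encodes a lipopolysaccharide co-receptor, averaged 4.32 CPM without and 7.59 CPM with it (edgeR adjusted p = 0.00164).

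CTCF and cohesin hold the loops that join protocadherin promoters to their enhancers. Of 17 listed genes of this machinery, 15 were tested, and 2 were called higher and 1 lower (20.0%, against 29.2% of all tested genes). Their median log2FC was 0.04. The cohesin subunit genes Stag1 and Rad21 rose in CPM without Activin A. Stag1 averaged 102 ± 3.54 CPM without and 83.0 ± 9.26 CPM with Activin A (edgeR adjusted p = 0.00508), and Rad21 averaged 324 ± 6.98 CPM without and 289 ± 20.7 CPM with it (edgeR adjusted p = 0.0351). In TPM the Rad21 groups overlapped, at 55.29, 55.55 and 54.29 without Activin A and 47.62, 42.9 and 55.67 with it. Esco2, which encodes a cohesin acetyltransferase, was called lower, at 50.6 ± 2.17 CPM without and 58.7 ± 5.68 CPM with Activin A (edgeR adjusted p = 0.0383), but its sign turned on the TPM scale. Ctcf itself, picked out after its values were seen, was at 88.8 ± 1.97 CPM without and 91.7 ± 5.24 CPM with Activin A (log2FC -0.05, 95% interval -0.17 to 0.08).

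DNA methylation and repressive chromatin keep protocadherin promoters silent. Of 23 listed genes of these processes, 21 were tested. Without Activin A 4 were called higher and 3 lower (33.3%, against 29.2% of all tested genes), with a median log2FC of 0.09. The de novo methyltransferase genes fell in CPM: Dnmt3b had 167, 161 and 161 CPM without Activin A and 297, 283 and 280.5 CPM with it, a log2FC of -0.82 ± 0.05 SE (edgeR adjusted p = 9.77e-09). Dnmt3a averaged 129.6 ± 1.84 CPM without and 168 ± 4.68 CPM with Activin A (log2FC -0.37, edgeR adjusted p = 3.66e-05). In TPM the Dnmt3a groups overlapped, at 55.25, 48.91 and 43.84 without Activin A and 53.6, 46.82 and 56.73 with it. Tet3, a methylcytosine dioxygenase gene, rose, with 48.0 ± 0.88 CPM without and 33.8 ± 2.28 CPM with Activin A (edgeR adjusted p = 3.66e-05), and Uhrf1, needed for maintenance methylation, averaged 339 ± 5.61 CPM without and 302 ± 13.5 CPM with it (edgeR adjusted p = 0.0187). Smchd1, a known repressor of the clusters that was picked out after its values were seen, averaged 189.6 ± 3.46 CPM without and 178 ± 13.9 CPM with Activin A and did not pass the test (log2FC 0.09, edgeR adjusted p = 0.247).

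The protocadherin tails act through focal adhesion kinases and the WAVE complex, which drives actin branching. Of 19 listed partners, all 19 were tested, and 3 were called higher and 4 lower (36.8%, against 29.2% of all tested genes). Their median log2FC was 0.01. Ptk2, which encodes focal adhesion kinase, averaged 145 ± 3.56 CPM without and 124 ± 3.87 CPM with Activin A (edgeR adjusted p = 0.00311), while its relative Ptk2b averaged 11.1 ± 1.5 CPM without and 17.4 ± 0.792 CPM with it (edgeR adjusted p = 0.000264). In TPM the Ptk2 groups overlapped, at 50.73, 41.64 and 67.44 without Activin A and 43.85, 49.15 and 39.75 with it. Of the WAVE complex, Nckap1 averaged 251 ± 3.06 CPM without and 217 ± 14.9 CPM with Activin A (edgeR adjusted p = 0.00874), and Cyfip2 averaged 117 ± 5.94 CPM without and 166 ± 10.5 CPM with it (edgeR adjusted p = 1.23e-05). Of 9 protease genes whose products cleave these proteins, ADAM proteases and gamma-secretase subunits, 0 were called higher and 1 lower by edgeR and by DESeq2. The called share in edgeR was 11.1%, against 29.2% of all tested genes, and 3 were higher at an unadjusted p under 0.05. The called gene, Aph1c, averaged 2.44 ± 0.453 CPM without and 4.7 ± 0.71 CPM with Activin A (edgeR adjusted p = 0.00196).

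Relatives outside the clusters included larger changes. Of 17 solitary protocadherin genes and their near relatives, 10 were tested, 3 were called higher and 2 lower without Activin A. This called share lay above the 29.2% of all tested genes. Pcdh7 had 38.6, 36.3 and 40.0 CPM without Activin A and 15.6, 18.2 and 17.8 CPM with it, 2.24-fold higher (edgeR adjusted p = 4.88e-08), and Pcdh18 was 1.63-fold higher (edgeR adjusted p = 6.39e-05). Cdhr1 was 3.03-fold lower without Activin A (edgeR adjusted p = 6.37e-11), and Pcdh8, a mesoderm-expressed protocadherin gene of the mouse embryo, was 4.07-fold lower at a low level, 0.450 ± 0.208 CPM without and 1.82 ± 0.465 CPM with Activin A (edgeR adjusted p = 0.00068). Of 10 genes of the Fat, Dachsous and Celsr families and the kinase gene Fjx1, 9 were tested, 2 were called higher and 2 lower. Their called share was 44.4%, against 29.2% of all tested genes. Fat1, a giant cadherin that reaches into Hippo and planar polarity signalling, was 2.0-fold higher without Activin A, at 528, 541 and 550 CPM without and 278, 266 and 263 CPM with it (edgeR adjusted p = 1.04e-09). Celsr2 was 1.27-fold higher (edgeR adjusted p = 0.00419). Dchs2 was 2.48-fold lower (edgeR adjusted p = 0.00141) at a low level, 1.31 ± 0.202 CPM without and 3.25 ± 0.913 CPM with Activin A. Fat3 was 1.31-fold lower (edgeR adjusted p = 0.031). In TPM the Fat3 groups overlapped, at 0.545, 0.742 and 0.571 without Activin A and 0.605, 0.550 and 0.709 with it.

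**Figure D5:**
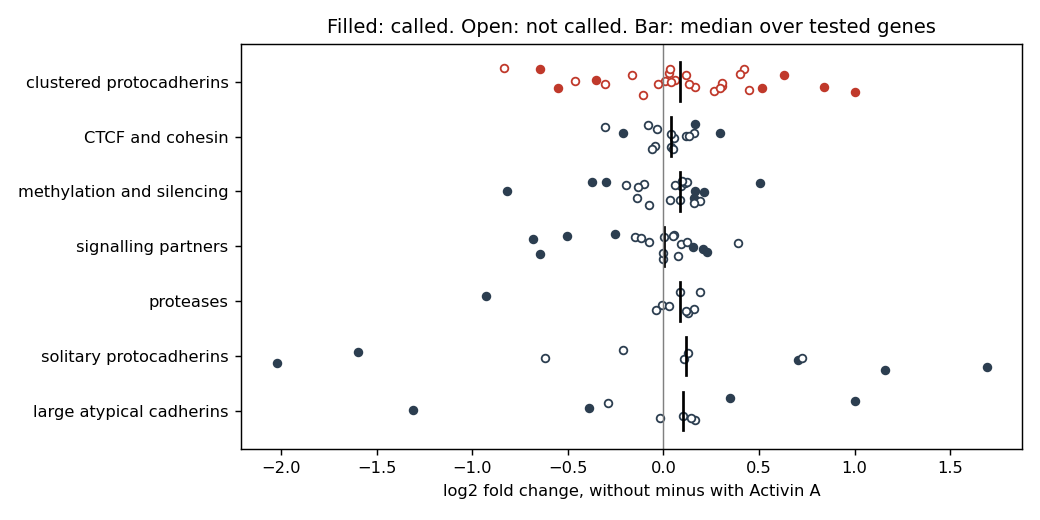
Log2 fold change (without minus with Activin A) of every tested gene in the clustered protocadherins and in 6 lists of related genes, 1 point per gene, filled where the edgeR adjusted p was under 0.05, with a bar at the list's median over tested genes. The median is between 0.01 and 0.12 in all 7 rows, with called genes on both sides of 0 in each row except the proteases, where the single called gene is lower.

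The labelled cell type was checked on 10 epiblast stem cell markers, all tested and none at 0. They summed to 394, 413 and 384 TPM without Activin A and 732, 728 and 765 TPM with it. Without Activin A, 8 were called lower and 2 higher (Lin28a and Sox2). Sox2 is also in the neural progenitor list, and Dnmt3b, one of the 8, is also in the methylation list above. Markers of other cell types moved with the groups as well, and their part in the protocadherin results was not tested. Neuron markers, of which 18 were listed and 16 tested, had 1 called higher and 9 lower, with sums of 236, 261 and 209 TPM without Activin A and 442, 425 and 440 TPM with it. Most of these sums was Stmn2 alone, at 166.5, 183.7 and 149.6 TPM without Activin A and 350.7, 332.0 and 351.5 TPM with it. Neural progenitor markers, 15 listed and 11 tested, had 3 called higher and 5 lower, with sums of 121, 122 and 112 TPM without and 147, 134 and 148 TPM with Activin A. Feeder fibroblast markers, 24 listed and 23 tested, had 4 called higher and 11 lower, with overlapping sums of 272, 263 and 267 TPM without and 246, 230 and 269 TPM with Activin A. No marker of these lists was at 0 in all libraries. The called shares were 100% of tested epiblast stem cell markers and 62.5% of neuron markers. They were 72.7% of neural progenitor and 65.2% of feeder markers, against 29.2% of all tested genes. Within the feeder list the genes went both ways: Col1a2 averaged 213 CPM without and 124 CPM with Activin A, and Col3a1 averaged 20.0 CPM without and 46.2 CPM with it.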

How the data were processed

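RNA-seq libraries of 6 samples, 3 without and 3 with Activin A, were used as deposited. Per the file headers, the deposited tables hold, per transcript, a TPM value and an estimated read count in salmon's column format. Salmon, DESeq2 and edgeR are named, with no version, in the submitters' processing notes. The authors' genome build, annotation and counting options: not given in the sources used here. The deposited estimated counts are not normalized, and the deposited TPM values are scaled by length and library total. Library totals were 9946521 to 16350923 deposited reads.

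Of 133618 transcripts, 133399 matched GENCODE M21 on GRCm38 by ID with the version ignored, and the 219 others were left out. Estimated counts were summed per gene, rounded and tested in edgeR 4.0.16 (R 4.3.3) with filterByExpr at its defaults (minimum count 10, minimum total 15), TMM scaling and the robust quasi-likelihood F test, with Benjamini-Hochberg adjustment and a threshold of 0.05. For cluster totals, the members of each cluster were replaced by their sum in the same table. An SE is that of the fitted log2 fold change. The fit was tested on simulated counts with 200 changed genes. DESeq2 1.42.0 and limma 3.58.1 gave alternatives, with other scalings, filters, length offsets and left-out libraries.

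Members named with full values were those called, the 10 highest by mean TPM and the 5 C-type genes. Named from each list were up to 2 called genes per direction with the smallest p. Members and lists were chosen with earlier results of these data known.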

Additional observations from a re-analysis of the deposited data

How the results depend on the processing

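Alternatives changed the count of called members more than the best-measured members. The 4 members called higher became 2 under DESeq2, under limma on log2(TPM + 1) or log2(TPM + 0.1), and with the length offset, and 2 to 3 with single libraries left out. The 3 called lower became 1 under limma on log2(TPM + 1), 0 under limma on log2(TPM + 0.1) (3 at an unadjusted p under 0.05), 2 with the length offset, and 1 to 4 with single libraries left out. The gamma total (log2FC 0.34) was 0.22 under limma on log2(TPM + 1) (adjusted p = 0.0789), 0.23 on log2(TPM + 0.1) (adjusted p = 0.0798), 0.18 with the length offset (adjusted p = 0.0829) and 0.22 in transcripts without constant exons (adjusted p = 0.468), where few reads remain; it ran from 0.30 to 0.36 with single libraries left out. With single libraries left out the alpha total ran from -0.23 to -0.12 and the beta total from 0.08 to 0.12; over all alternatives the alpha total (-0.19) reached -0.38, with the length offset, and the beta total (0.10) lay between 0.07 and 0.16, with no call in either. Alpha transcripts without constant exons gave no value, since too few reads remained. Over the genes named by rule from the lists and neighbours, 59 outcomes under alternatives lost the call and 3 reversed sign, beside 584 labelled the same. Pcdhgc4 reversed to 0.84 with Pcdhgc4-203 left out. Esco2 reversed to 0.084 and 0.087 under limma (pseudocounts 1 and 0.1) and to 0.045 with the length offset; the cause was not tested. With the replicate number as a block the gamma total was 0.34 (edgeR adjusted p = 0.000238) and 4 members were called higher and 3 lower. Same-numbered libraries correlated at -0.03, -0.05 and -0.06 across genes, so no shared effect of the number was seen. With 3 libraries per group this cannot show that the numbers do not pair the samples.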

Other observations

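The symbol Pcdha11 is carried by 2 gene IDs in GENCODE M21, ENSMUSG00000007440.10 from base 37005203 and ENSMUSG00000102206.5 from base 37010712 of chromosome 18. RefSeq on GRCm38.p6 places Pcdha10 from base 37005320 and Pcdha11 from base 37010858. The first of these IDs had 2.61 reads in the library with Activin A replicate 1 and 0 in the other libraries. The second had 3.05, 0 and 0 reads without Activin A and 6.51, 0.95 and 0 reads with it.

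Annotated read-through genes that join alpha first exons to gamma constant exons were nearly without reads. Gm42416 had 8.05 reads in the library without Activin A replicate 2 and 0 in the other libraries, and Gm37013 and Gm37388 were at 0 in every library.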
